A study of Mus musculus with 24 samples.

Results

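Mfge8, Edil3 and the integrin genes Itgav, Itgb3 and Itgb5 code for a pair of related secreted bridging proteins and the receptor subunits they bind. The members were the genes with these 5 names, and all 5 were found among 21948 protein-coding genes and passed the filter that left 11767 genes for testing. The 24 libraries came from skeletal cells of male mice on postnatal day 10, sorted as CD200+ and negative for CD45, TER119, CD31, Thy, 6C3 and CD105, and their genotype is given as wild type. The 6 groups had 4 libraries each. Cells of the spine were sorted by reporter and embigin into GFP+ EMB+, GFP+ EMB-, GFP- EMB+ and GFP- EMB- groups, called vertebral here, and cells of femur and tibia, called long bone, into EMB+ and EMB- groups. EMB is embigin, a cell surface protein, and GFP+ cells were positive for Zic1-Cre, a recombinase driven by a gene of the early somites, per the design text. Both long bone groups were GFP-, so a contrast of vertebral GFP+ with long bone cells differs in site and in reporter, while vertebral GFP- and long bone cells are both reporter-negative.

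MFG-E8, the product of Mfge8, is a secreted glycoprotein whose discoidin domains bind phosphatidylserine on dying cells and whose Arg-Gly-Asp motif binds αv integrins on cells that engulf them. EDIL3 is built from the same kinds of domain and is best known from endothelium and from leukocyte adhesion. The αv subunit, coded by Itgav, pairs with β3 or β5 to form the receptors of both proteins. It also pairs with other β subunits, while β3 pairs with αIIb on platelets and, with αv, is abundant on osteoclasts.

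The bases that code for the integrin-binding motif are shown because that motif links the ligands to the receptors. Each line gives 30 bases on the coding strand, in the GRCm38 genome with GENCODE M21 transcripts, and the capitals mark the Arg-Gly-Asp codons.
Mfge8: ttggacacacagCGTGGGGACatcttcacc
Edil3: agcgaagcctatCGAGGAGACacattcata
The Mfge8 codons lie at chr7:79145308-79145316 on the minus strand, in exon 3 of 10, and begin at codon 87 of 463. Those of Edil3 lie at chr13:89042491-89042499 on the plus strand, in exon 4 of 11, and begin at codon 96 of 480. Such a run of codons was present in 1567 of 21756 genes with a complete coding sequence, or 7.2%. Of 11 other known ligands of these receptors, Vtn, Fn1, Spp1, Ibsp, Thbs1 and Fbn1 held it in their longest transcript. Annotation holds 2 protein-coding transcripts of Mfge8 and 3 of Edil3, and the deposited values are per gene, so forms with and without these exons cannot be told apart.

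In GRCm38, Mfge8 (ENSMUSG00000030605) spans chr7:79133768-79149060 and Edil3 (ENSMUSG00000034488) spans chr13:88821472-89323223. Itgav (ENSMUSG00000027087) spans chr2:83724397-83806916, Itgb3 (ENSMUSG00000020689) spans chr11:104608000-104670476 and Itgb5 (ENSMUSG00000022817) spans chr16:33829665-33949153. Mfge8 is on the minus strand and the other members are on the plus strand. Itgav overlaps Gm13684 on the opposite strand and the pseudogene Dnmt3l-ps1, and the library kits do not mark strand, so reads of these genes cannot be told apart from its own there.

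Values are FPKM, the authors' fragments per kilobase scaled to the mapped fragments of a library, in which levels can be set side by side between genes, but no count or depth is given. Tests used limma on log2(FPKM + 1) with Benjamini-Hochberg adjustment over all tested genes, and a gene is called where the adjusted p was under 0.05. The added 1 shrinks the changes of weakly expressed genes, among them Itgb3. The titles call the libraries biological replicates, but nothing in the labels ties them to named animals, so p-values measure the spread between libraries. Embigin itself averaged between 34.7 and 50.0 FPKM in the EMB+ groups and between 0.398 and 1.03 FPKM in the EMB- groups. The 4 vertebral GFP- EMB+ libraries have titles that name another group than their cell type labels, and the labels were used, so comparisons with this group cannot be made without them. Of 35 member changes that do not use that group, 33 stayed on the same side of the threshold when those libraries were left out of the fit. Long bone EMB- replicate 4 stood apart, with a correlation as low as 0.925 to its own group, against lows of 0.978 or more in the other groups. Hemoglobin genes made up 4.62% to 8.87% of summed FPKM in long bone EMB- libraries, 1.78% to 2.95% in vertebral GFP- EMB- libraries and at most 0.249% in the others. In bulk samples, fewer cells of a type and less RNA per cell cannot be told apart.

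Mfge8, the phosphatidylserine bridge, was among the most abundant transcripts of every library, with a rank between 10 and 35 and 0.220% to 0.702% of summed FPKM. It was about 2-fold higher in vertebral than in long bone cells and was called in none of the EMB or GFP comparisons, except in 2 alternatives given with those changes. The 4 vertebral GFP+ EMB+ libraries had 2724, 2845, 2539.9 and 2527 FPKM. The 4 vertebral GFP- EMB+ libraries had 2744, 2894, 2578 and 2647 FPKM. The long bone EMB+ libraries had 1177, 1020 and 1463 FPKM and, in replicate 4, 1569 FPKM. All vertebral values lay above all long bone values among these EMB+ libraries. In EMB- cells, vertebral GFP+ libraries had 2664, 2479, 2491 and 2828 FPKM. The vertebral GFP- EMB- libraries had 2469.9, 2430.2, 2213 and 2461 FPKM. The long bone EMB- libraries had 1048, 997.3, 1372 and 1869 FPKM. The lowest of 16 vertebral libraries, at 2213 FPKM, thus lay above the highest of 8 long bone libraries, at 1869 FPKM.

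The group means of Mfge8 were 2659 ± 153 FPKM for vertebral GFP+ EMB+, 2716 ± 137 for vertebral GFP- EMB+ and 1307 ± 254 for long bone EMB+ cells (SD, n = 4 each). The EMB- means were 2616 ± 164.9 FPKM in vertebral GFP+, 2394 ± 122 in vertebral GFP- and 1321 ± 401 in long bone cells. On the log2 scale Mfge8 was higher by 1.04 (SE 0.158, adjusted p = 1.50e-05) in EMB+ cells of vertebrae (GFP+) than of long bone, and by 1.03 (adjusted p = 7.19e-06) in the EMB- cells of the same sites. Between vertebral GFP- and long bone cells it was higher by 1.07 in EMB+ cells (adjusted p = 1.33e-05) and by 0.90 in EMB- cells (adjusted p = 4.94e-05). These 4 calls held under every alternative run, and without long bone EMB- replicate 4 the EMB- changes were 1.21 and 1.08. The EMB contrast of Mfge8 gave 0.02 in vertebral GFP+ cells, with a 95% interval from -0.30 to 0.35, and 0.18 in vertebral GFP- cells (-0.14 to 0.51). In long bone it gave 0.01 (-0.32 to 0.34). Median-ratio scaling turned the vertebral GFP+ change to -0.37 with a call (adjusted p = 0.0421, range 0.0421 to 0.997 over alternatives), and library weights called the long bone change at 0.29 (adjusted p = 0.0296, range 0.0296 to 0.985).

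**Figure D1:**
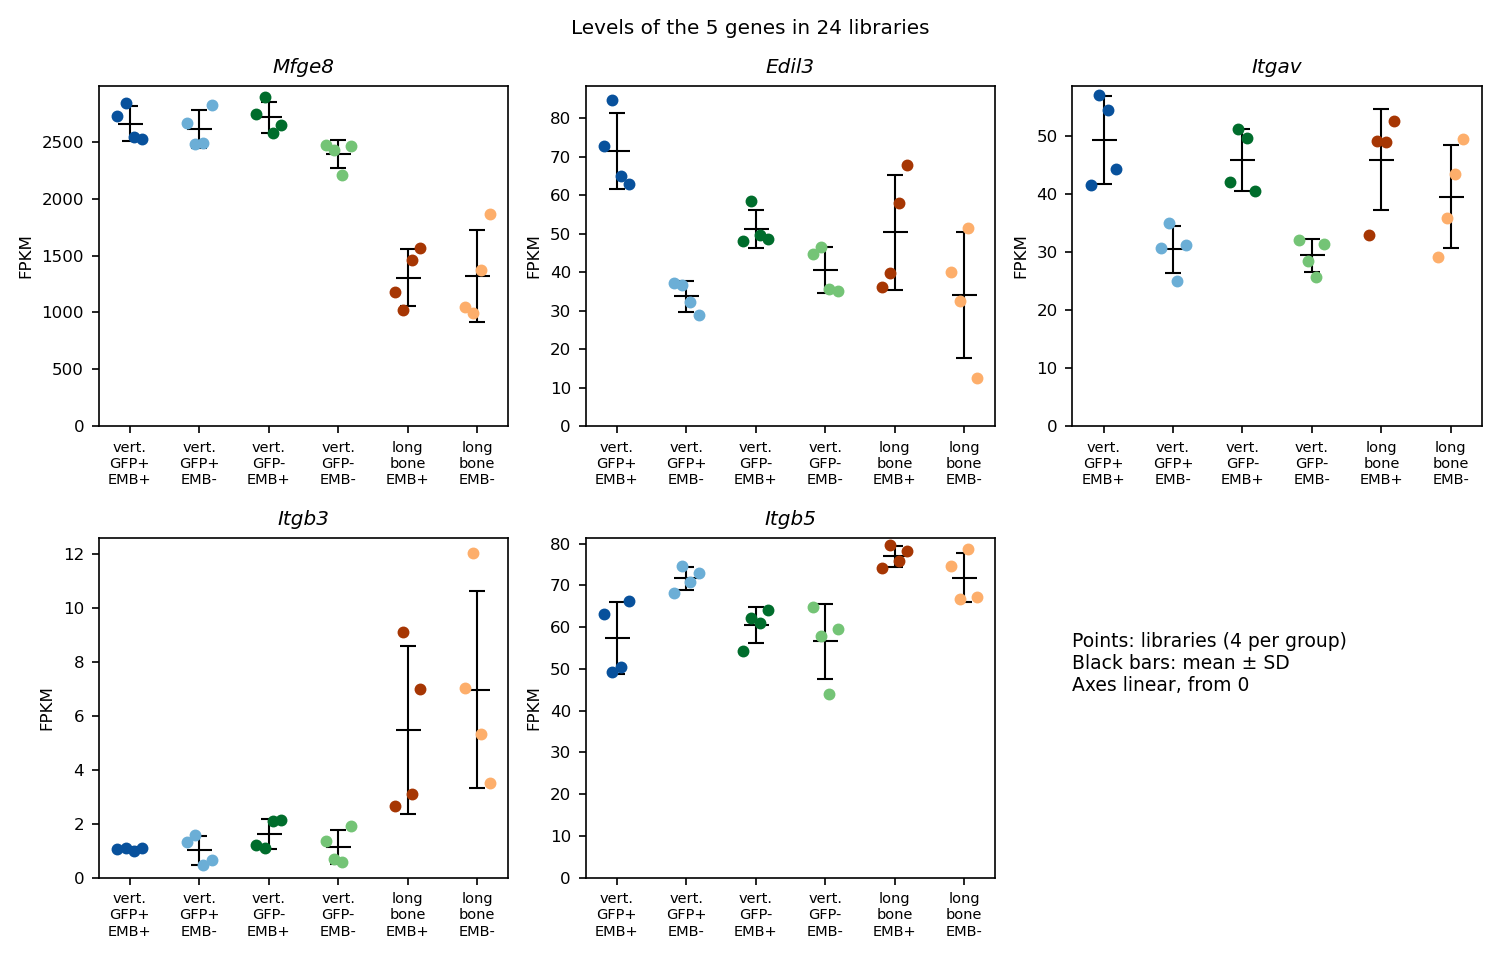
FPKM (linear axes from 0) of Mfge8, Edil3, Itgav, Itgb3 and Itgb5 in the 6 groups; points are the 4 libraries of a group and bars the group mean with SD. Mfge8 separates all 16 vertebral from all 8 long bone libraries, and Itgb3 separates them in the other direction.

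Between sites, the summed level of cartilage markers moved with Mfge8. Among the vertebral groups the sums were higher in EMB- than in EMB+ libraries, while mean Mfge8 was not. The sum was carried largely by Col2a1, with a median of 38225 FPKM over the 24 libraries. The summed FPKM of 10 chondrocyte markers ranged from 49846 to 52653 in vertebral GFP+ EMB+, from 50209 to 52335 in vertebral GFP- EMB+ and from 28077 to 40725 in long bone EMB+ libraries. In EMB- cells it ranged from 53665 to 57076 in vertebral GFP+, from 54970.0 to 59572 in vertebral GFP- and from 29083 to 38687 in long bone libraries. Long bone EMB+ replicates 1 to 4 had sums of 31972, 28077, 40725 and 39104, beside 1177, 1020, 1463 and 1569 FPKM of Mfge8. Long bone EMB- replicates 1 to 4 had sums of 32205, 29083, 38687 and 36024, beside 1048, 997.3, 1372 and 1869 FPKM of Mfge8. Of the 10 markers, 8 were higher and 2 lower in vertebral GFP+ against long bone EMB+ cells, where 21.5% of all genes were called. The summed FPKM of 9 osteoblast markers ran the other way, from 5986 to 7031 in vertebral GFP+ EMB+ and from 15070.0 to 32484 in long bone EMB+ libraries. Not every marker did so in that contrast. Alpl was higher by 0.56 in the vertebral cells (adjusted p = 0.0201), Runx2 (-0.15) and Sp7 (0.05) were not called, and the others were lower. The part of these markers in the Mfge8 difference was not tested.

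Edil3, the paralogue of Mfge8, was far less abundant, and 1 of its 9 comparisons was called. It was about 2-fold higher in EMB+ than in EMB- vertebral GFP+ cells. Vertebral GFP+ EMB+ libraries had 72.9, 84.8, 65.0 and 63.0 FPKM, against 37.1, 36.7, 32.2 and 28.7 FPKM in vertebral GFP+ EMB- libraries. The lowest EMB+ library was above the highest EMB- library. The log2 change was 1.06 (SE 0.260, adjusted p = 0.00176), on group means of 71.4 ± 9.86 and 33.7 ± 3.97 FPKM. Scaling the libraries by their median ratio, which takes out the shift of all genes described with the counts of calls, left 0.68 and lost the call (adjusted p = 0.0705, with a range over all alternatives from 1.46e-06 to 0.0705).

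Among GFP- cells, Edil3 had 48.0, 58.6, 49.7 and 48.6 FPKM in vertebral EMB+ libraries and 44.8, 46.6, 35.6 and 35.1 FPKM in vertebral EMB- libraries. The 2 groups did not overlap, but the change of 0.34 (adjusted p = 0.282) did not pass the test. In long bone, EMB+ libraries had 36.0, 39.8, 57.9 and 67.7 FPKM and EMB- libraries had 40.1, 32.6, 51.4 and 12.5 FPKM. The ranges overlapped, with replicate 4 the lowest of the EMB- libraries, and the change of 0.66 missed the threshold (adjusted p = 0.0524). Without that replicate the long bone change was 0.25 (adjusted p = 0.265), while leaving out EMB+ replicate 1 or 2 or EMB- replicate 1 or 3 brought a call, with adjusted p between 0.00722 and 0.0455. Edil3 differed between GFP+ and GFP- EMB+ vertebral cells by 0.47 (adjusted p = 0.737), and its vertebral GFP+ over long bone change in EMB+ cells was 0.53 (adjusted p = 0.161). That contrast of sites passed without long bone EMB- replicate 4 (adjusted p = 0.0151), a library that is in neither group but enters the shared estimate of the spread. In vertebral GFP- against long bone EMB- cells it was 0.39 (adjusted p = 0.225), and 0.63 without long bone EMB- replicate 3 (adjusted p = 0.0411). The difference between the EMB changes in vertebral GFP+ and GFP- cells was 0.72 (adjusted p = 0.368). Against long bone it was 0.40 (adjusted p = 0.460), and 0.80 without long bone EMB- replicate 4 (adjusted p = 0.00965).

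Itgav, the αv subunit shared by both receptors, was higher in EMB+ than in EMB- cells of the vertebrae, by about 1.5-fold to 1.6-fold on the fitted scale. Vertebral GFP+ EMB+ libraries had 41.4, 57.0, 54.4 and 44.2 FPKM, against 30.6, 34.9, 25.0 and 31.2 FPKM in vertebral GFP+ EMB- libraries. Vertebral GFP- EMB+ libraries had 42.1, 51.2, 49.6 and 40.4 FPKM, against 32.0, 28.4, 25.8 and 31.4 FPKM in vertebral GFP- EMB- libraries. In both pairs every EMB+ library was above every EMB- library. The log2 changes were 0.68 (SE 0.157, adjusted p = 0.00110) in GFP+ cells and 0.62 (adjusted p = 0.00199) in GFP- cells. Both calls were lost where the libraries were rescaled. Median-ratio scaling left 0.29 (adjusted p = 0.169) in GFP+ and 0.22 (adjusted p = 0.288) in GFP- cells, and quantile normalization left 0.33 (adjusted p = 0.129) and 0.26 (adjusted p = 0.211).

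Long bone EMB+ libraries had 33.0, 49.1, 48.9 and 52.5 FPKM of Itgav and long bone EMB- libraries had 29.1, 35.9, 43.4 and 49.5 FPKM. The ranges overlapped, and the change was 0.22 (95% interval -0.11 to 0.54, adjusted p = 0.306). Across sites, Itgav was called in vertebral GFP- against long bone EMB- cells, where it was lower by 0.39 on the log2 scale (adjusted p = 0.0422), with means of 29.4 ± 2.87 and 39.5 ± 8.86 FPKM. That change was close to the median of all genes in this contrast, -0.28, and was not called without long bone EMB- replicate 4 (-0.28, adjusted p = 0.134), nor without long bone EMB- replicate 3 or vertebral GFP- EMB- replicate 2, 3 or 4 (adjusted p between 0.0501 and 0.117). In vertebral GFP+ against long bone EMB- cells it changed by -0.35 without a call (adjusted p = 0.0705), which leaving out replicate 1 of either long bone group brought (adjusted p = 0.0475 for EMB+ and 0.0155 for EMB-). The EMB changes of Itgav in vertebral GFP+ and long bone cells differed by 0.46, without a call (adjusted p = 0.126), and 0.59 without long bone EMB- replicate 1 (adjusted p = 0.0409).

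Itgb5, the β5 subunit, was the more abundant β partner in every library, between 44.0 and 79.7 FPKM, with narrow spread among the groups. In vertebral GFP+ cells it ran opposite to Itgav. The vertebral GFP+ EMB+ libraries had 63.1, 49.4, 50.5 and 66.3 FPKM, against 68.3, 74.7, 70.9 and 73.0 FPKM in vertebral GFP+ EMB- libraries. The highest EMB+ library was below the lowest EMB- library, and Itgb5 fell by 0.33 on the log2 scale (SE 0.114, adjusted p = 0.0197). Leaving out vertebral GFP+ EMB+ replicate 2 or replicate 3 ended the call (adjusted p = 0.0800 and 0.0718), while over all alternatives it ranged from 2.82e-05 to 0.0800.

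In the other groups Itgb5 had 54.4, 62.3, 61.0 and 64.1 FPKM in vertebral GFP- EMB+ libraries and 64.9, 57.9, 44.0 and 59.5 FPKM in vertebral GFP- EMB- libraries. Long bone EMB+ libraries had 74.1, 79.7, 75.8 and 78.2 FPKM and long bone EMB- libraries had 74.6, 66.7, 78.8 and 67.2 FPKM. Neither pair of groups was apart, and the EMB changes were 0.11 (adjusted p = 0.449) in vertebral GFP- and 0.10 (adjusted p = 0.526) in long bone cells. The EMB change in vertebral GFP+ cells was lower than that in long bone by 0.43 (adjusted p = 0.0448), a call that leaving out any of 15 single libraries ended, with adjusted p between 0.0507 and 0.106. These were vertebral GFP+ EMB+ replicates 2 and 3, vertebral GFP+ EMB- replicates 2 to 4, vertebral GFP- EMB+ replicates 2 to 4, vertebral GFP- EMB- replicate 2, all 4 long bone EMB+ libraries and long bone EMB- replicates 1 and 2. Against vertebral GFP- cells the same difference was -0.44 (adjusted p = 0.152).

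Across sites, Itgb5 was lower in vertebral than in long bone EMB+ cells, by 0.43 on the log2 scale in GFP+ cells (adjusted p = 0.00689) and by 0.34 in GFP- cells (adjusted p = 0.0339). Every vertebral EMB+ library, at 66.3 FPKM or less, was below every long bone EMB+ library, at 74.1 FPKM or more. The vertebral GFP- change lost its call without vertebral GFP- EMB+ replicate 1, 2 or 3 or long bone EMB+ replicate 2, 3 or 4, with adjusted p between 0.0532 and 0.117. In EMB- cells the vertebral GFP+ and long bone means were 71.7 ± 2.76 and 71.8 ± 5.88 FPKM, a change of 0.00 (95% interval -0.23 to 0.24). Vertebral GFP- EMB- cells had 56.6 ± 8.91 FPKM and were lower than long bone by 0.35 (adjusted p = 0.0141), a change of 0.08 under quantile normalization (adjusted p = 0.670) and not called without vertebral GFP- EMB- replicate 3 (adjusted p = 0.0867). Between vertebral GFP+ and GFP- EMB- cells Itgb5 differed by 0.35 (adjusted p = 0.0590). With the replicate number as a block, which pairs the libraries of this comparison, that change was called (adjusted p = 0.0421, with a range over all alternatives from 0.0107 to 0.285). It was also called without vertebral GFP- EMB- replicate 1 or long bone EMB- replicate 4 (adjusted p = 0.0300 and 0.0271).

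Itgb3, the β3 subunit, was the least abundant member and showed the widest difference between sites, with 19 of 24 libraries at 1 FPKM or more. In EMB+ cells, vertebral GFP+ libraries had 1.08, 1.11, 0.986 and 1.09 FPKM and vertebral GFP- libraries had 1.21, 1.10, 2.08 and 2.12 FPKM. The long bone EMB+ libraries had 2.64, 9.10, 3.09 and 6.999 FPKM. No vertebral library reached the lowest of long bone. In EMB- cells, vertebral GFP+ libraries had 1.32, 1.57, 0.471 and 0.664 FPKM and vertebral GFP- libraries had 1.37, 0.704, 0.569 and 1.92 FPKM. The long bone EMB- libraries had 7.03, 12.02, 5.33 and 3.49 FPKM. The highest of the 16 vertebral libraries, at 2.12 FPKM, was below the lowest of the 8 long bone libraries, at 2.64 FPKM.

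The log2 change of Itgb3 was -1.51 (SE 0.301, adjusted p = 0.000451) in vertebral GFP+ against long bone EMB+ cells and -1.92 (adjusted p = 9.96e-06) in the EMB- cells. Between vertebral GFP- and long bone cells it was -1.19 (adjusted p = 0.00520) in EMB+ and -1.83 (adjusted p = 2.31e-05) in EMB- cells. All 4 calls held under every alternative run, but the size depends on the pseudocount because the gene is low. For the first of them it was -2.07 with a pseudocount of 0.1 and -0.74 with a pseudocount of 5. Without long bone EMB- replicate 4 the EMB- changes were -2.16 and -2.07. The EMB contrasts of Itgb3 were 0.08 (adjusted p = 0.844) in vertebral GFP+, 0.32 (adjusted p = 0.386) in vertebral GFP- and -0.33 (adjusted p = 0.433) in long bone cells. Their 95% intervals ran from -0.54 to 0.70, from -0.30 to 0.94 and from -0.95 to 0.29.

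Platelet-forming and osteoclast-lineage cells are known to express β3, so their markers are given beside Itgb3. The summed FPKM of 7 megakaryocyte and platelet markers was 7.74 to 10.9 among vertebral GFP+ EMB+, 8.95 to 12.7 among vertebral GFP- EMB+ and 13.1 to 102.8 in long bone EMB+ libraries. In EMB- cells it was 4.78 to 8.72 in vertebral GFP+, 6.32 to 50.6 in vertebral GFP- and 13.8 to 132.7 in long bone libraries. The sums of vertebral and long bone libraries were apart in EMB+ cells. In EMB- cells they overlapped through vertebral GFP- EMB- replicate 4 alone, at 50.6, which had 1.92 FPKM of Itgb3. The rest of that group had sums of 6.65 or less. Long bone EMB+ replicates 2 and 4, with 9.10 and 6.999 FPKM of Itgb3, had sums of 64.4 and 102.8. Replicates 1 and 3, with 2.64 and 3.09 FPKM, had 13.4 and 13.1. Long bone EMB- replicates 1 to 4, with 7.03, 12.02, 5.33 and 3.49 FPKM, had 126.2, 132.7, 13.8 and 56.4. Pf4, a platelet chemokine, had 1.89 FPKM or less in vertebral GFP+ EMB+ and 1.40 to 41.8 FPKM in long bone EMB+ libraries, and 0.509 to 2.48 FPKM in vertebral GFP+ EMB- and 0.875 to 63.1 FPKM in long bone EMB- libraries. Ppbp, another platelet chemokine, reached 12.9 FPKM in vertebral and 46.6 FPKM in long bone libraries. Gp1ba, a platelet surface receptor chain, was at 1.67 FPKM or less and listed at 0 in 8 libraries. Of the 7 markers 5 were tested. In vertebral GFP+ against long bone EMB+ cells 1 was lower (21.5% of all genes were called), Gp9, another chain of that receptor, by 1.44 on the log2 scale (adjusted p = 0.0131), a call lost without long bone EMB+ replicate 2 or 4 (adjusted p = 0.0817 and 0.0611). In the EMB- cells 4 were lower (47.8% of all genes), with Gp9 lower by 2.68.

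The summed FPKM of 10 macrophage and osteoclast markers was 34.1 to 53.3 in vertebral GFP+ EMB+, 61.8 to 236.7 in vertebral GFP- EMB+ and 94.7 to 142.5 in long bone EMB+ libraries. In EMB- cells it was 33.4 to 46.7 in vertebral GFP+, 36.9 to 55.3 in vertebral GFP- and 101.1 to 155.4 in long bone libraries. The sums were thus lower in vertebral GFP+ than in long bone libraries at both EMB states, while those of vertebral GFP- EMB+ libraries overlapped long bone and reached higher. Lyz2, a lysozyme of myeloid cells, had 10.9 to 177.7 FPKM in vertebral GFP- EMB+ and 7.25 to 28.3 FPKM in long bone EMB+ libraries. Of the 10 markers 4 were tested, and Acp5 and Ctsk, enzymes of bone-resorbing osteoclasts, were lower in vertebral GFP+ cells than in long bone at both EMB states. Both were also lower in vertebral GFP- than in long bone cells, where 19.1% (EMB+) and 48.2% (EMB-) of all genes were called. The log2 changes there were -0.92 in EMB+ and -2.09 in EMB- cells for Ctsk, and -0.84 (adjusted p = 0.0114) and -1.14 for Acp5. Cd68 and Lyz2, the other tested markers, were not called in these GFP- contrasts. Ctsk averaged 33.1 ± 2.49 FPKM in vertebral GFP+ EMB+ and 89.3 ± 11.7 FPKM in long bone EMB+ cells, and was lower by 1.40 on the log2 scale there and by 1.23 in EMB- cells. Acp5 averaged 3.34 ± 0.95 FPKM in vertebral GFP+ EMB+ and 7.06 ± 2.83 FPKM in long bone EMB+ cells, a change of -0.86 (adjusted p = 0.00833) that was not called without long bone EMB+ replicate 1 (adjusted p = 0.0539). In EMB- cells it was lower by 3.27, with 1.36 ± 0.32 FPKM in vertebral GFP+ and 22.8 ± 9.17 FPKM in long bone cells. Csf1r was at 2.04 FPKM or less and Adgre1 at 0.154 FPKM or less throughout, and Ocstamp was listed at 0 in 10 libraries and C1qa in 13. The part of either marker list in the Itgb3 difference was not tested.

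**Figure D2:**
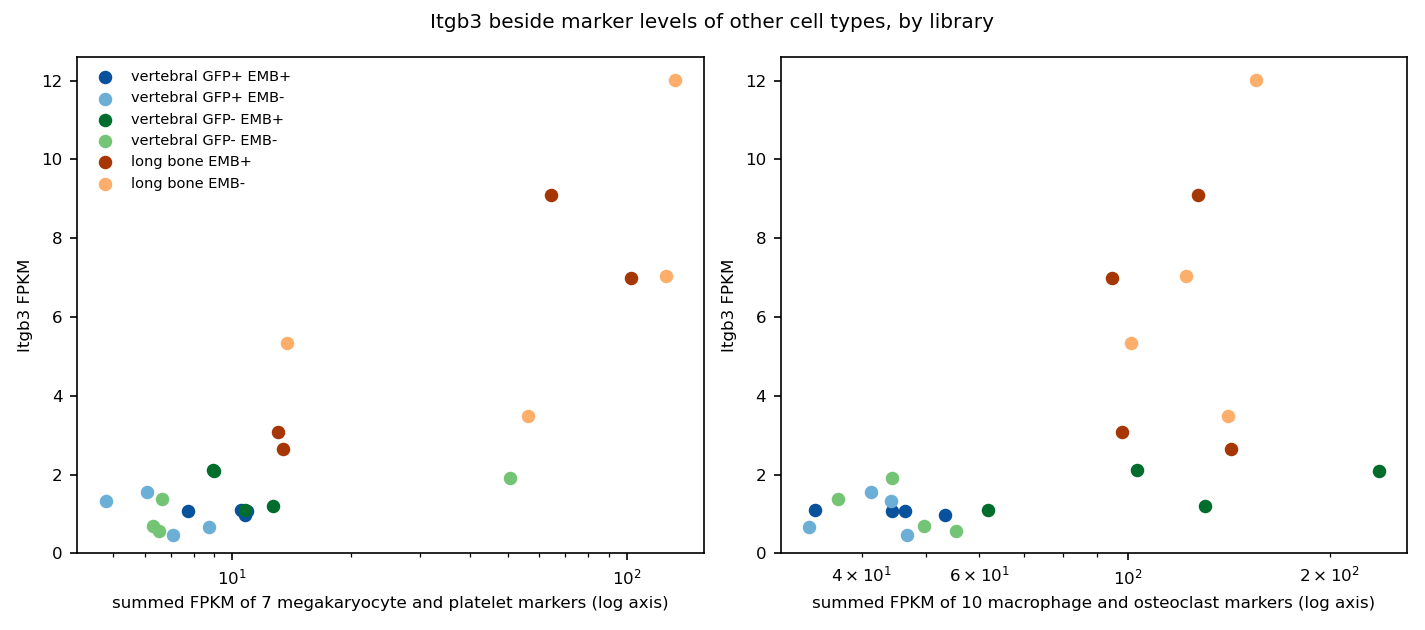
Itgb3 FPKM (linear vertical axes) beside the summed FPKM of 7 megakaryocyte and platelet markers and of 10 macrophage and osteoclast markers (log horizontal axes); each point is a library, coloured by group. Itgb3 is at 2.12 FPKM or less in vertebral libraries, whose megakaryocyte and platelet sums run from 4.78 to 50.6, and at 2.64 FPKM or more in long bone libraries, whose sums run from 13.1 to 132.7.

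Counted by comparison, 3 of the 5 members were called between vertebral EMB+ and EMB- GFP+ cells, beside 50.0% of all tested genes. Edil3 and Itgav were higher and Itgb5 lower. In vertebral GFP- cells 1 member was called, Itgav, beside 52.3% of all genes. In long bone limma called none, beside 33.5% of all genes, and 1 member had an unadjusted p under 0.05. Over all tested genes the median EMB change was 0.32 in vertebral GFP+, 0.30 in vertebral GFP- and 0.08 in long bone cells, and the members' counts stand near or under the share of all genes. Relative to that median, Edil3 stood at 0.74 in vertebral GFP+ cells, Itgav at 0.36, Mfge8 at -0.29 and Itgb5 at -0.65. Groups did not overlap for 3 members in vertebral GFP+ cells (50.6% of all genes), 3 in vertebral GFP- cells (51.5%) and 0 in long bone (24.7%).

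Between GFP+ and GFP- vertebral cells limma called no member in the main fit, which had no block. The replicate block, which pairs these libraries, called Itgb5 in EMB- cells. In EMB+ cells the background was 2.10% and 0 members had an unadjusted p under 0.05, and in EMB- cells it was 8.47% and 1 member did, Itgb5. Groups did not overlap for Edil3 in EMB+ cells (8.29% of all genes) and for Itgb5 and Mfge8 in EMB- cells (16.8%). The largest change among the 5 genes in EMB+ cells was that of Edil3, whose GFP+ libraries, at 63.0 FPKM or more, all lay above its GFP- libraries, at 58.6 FPKM or less.

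Between sites, 3 members were called in vertebral GFP+ against long bone EMB+ cells, beside 21.5% of all genes, and 3 in vertebral GFP- against long bone EMB+ cells, beside 19.1%. In both, Mfge8 was higher and Itgb3 and Itgb5 were lower. In EMB- cells 2 members were called for vertebral GFP+ cells, beside 47.8% of all genes, and 4 for vertebral GFP- cells, beside 48.2%. Ranges did not overlap for 3 members in each EMB+ contrast (28.1% and 24.8% of all genes), and for 2 and 3 members in the EMB- contrasts (36.8% and 35.3%). The 2 vertebral contrasts at each EMB state share their long bone libraries, so they are not separate evidence. For the differences between EMB changes, limma called 1 member for vertebral GFP+ minus long bone (30.5% of all genes), Itgb5. It called 0 for vertebral GFP+ minus GFP- (4.87%), with 1 member at an unadjusted p under 0.05, and 0 for vertebral GFP- minus long bone (29.8%), with 0 members at that level.

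**Figure D3:**
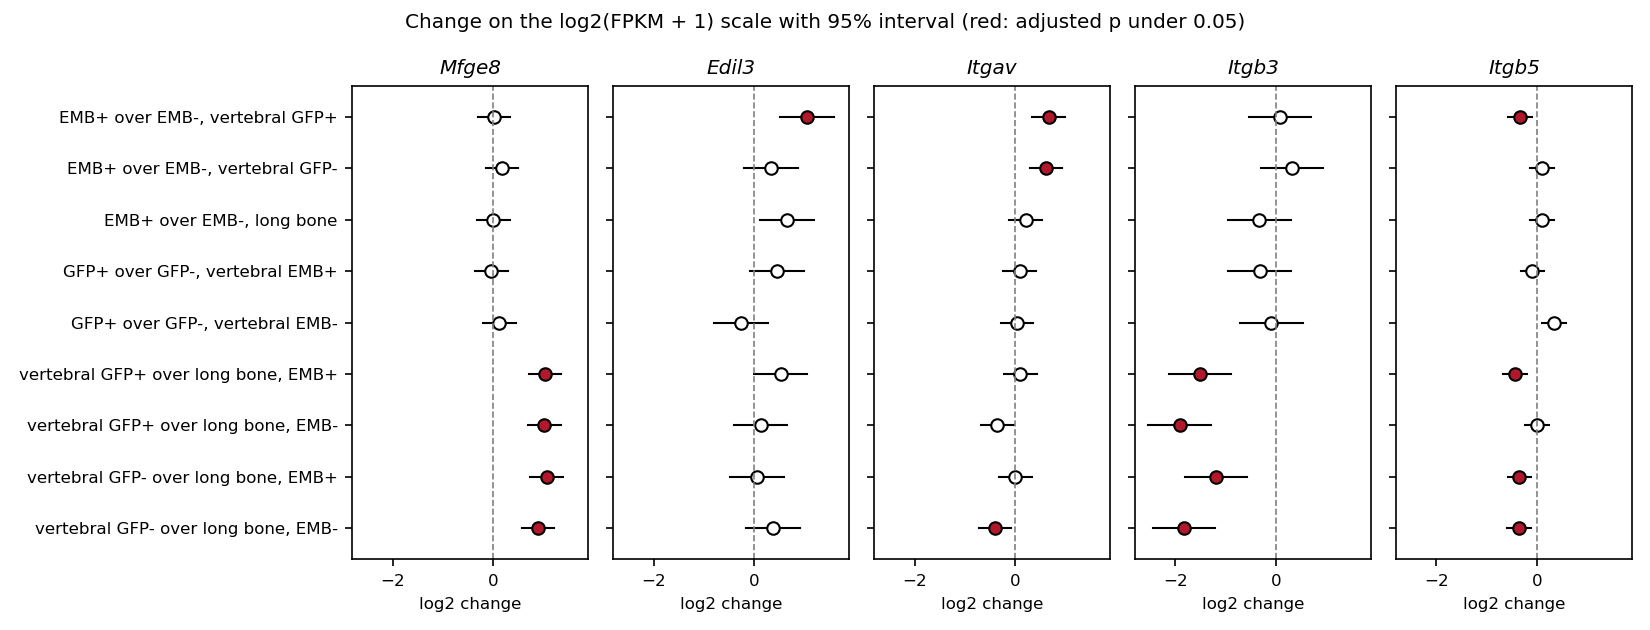
Change on the log2(FPKM + 1) scale (horizontal axes) with 95% interval for the 5 genes in 9 comparisons, each named with the group on top of the change first; red marks an adjusted p under 0.05. The 4 vertebral over long bone changes of Mfge8 lie between 0.90 and 1.07 and those of Itgb3 between -1.92 and -1.19.

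A ratio of 2 FPKM values of a library does not depend on how that library was scaled, but the log2 ratios here carry the added 1, which lowers those with a weakly expressed gene. Mfge8 over Edil3, as the log2 of (FPKM + 1) values, in vertebral GFP+ cells averaged 5.21 ± 0.11 in the EMB+ and 6.24 ± 0.23 in the EMB- group (SD, n = 4 each). These groups were apart, with maxima and minima of 5.30 and 6.04 on the facing sides. In vertebral GFP- cells the ratio averaged 5.70 ± 0.09 in EMB+ and 5.86 ± 0.19 in EMB- cells, which overlapped. Long bone EMB+ libraries held the lowest mean, 4.70 ± 0.21, and long bone EMB- libraries averaged 5.35 ± 1.18, with replicate 4 alone at 7.11. In FPKM, Mfge8 was between 23.2 and 149.2 times Edil3.

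The ratio of the β subunits in FPKM separated the sites. Itgb5 was 44.6 to 60.9 times Itgb3 in vertebral GFP+ EMB+, 29.3 to 56.8 times in vertebral GFP- EMB+ and 8.76 to 28.0 times in long bone EMB+ libraries. In EMB- libraries it was 47.6 to 150.5 times in vertebral GFP+, 31.0 to 82.3 times in vertebral GFP- and 5.55 to 19.2 times in long bone cells. The lowest vertebral ratio, 29.3, was above the highest long bone ratio, 28.0, by little. Itgav over Itgb5 in vertebral GFP+ cells averaged -0.21 ± 0.43 on the log2 scale for EMB+ and -1.22 ± 0.17 for EMB-. In vertebral GFP- cells it averaged -0.40 ± 0.17 in EMB+ and -0.91 ± 0.12 in EMB- cells. In both vertebral pairs the EMB+ libraries lay above the EMB- libraries. Itgav exceeded Itgb5 in 2 libraries of the 24, both vertebral GFP+ EMB+.

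**Figure D4:**
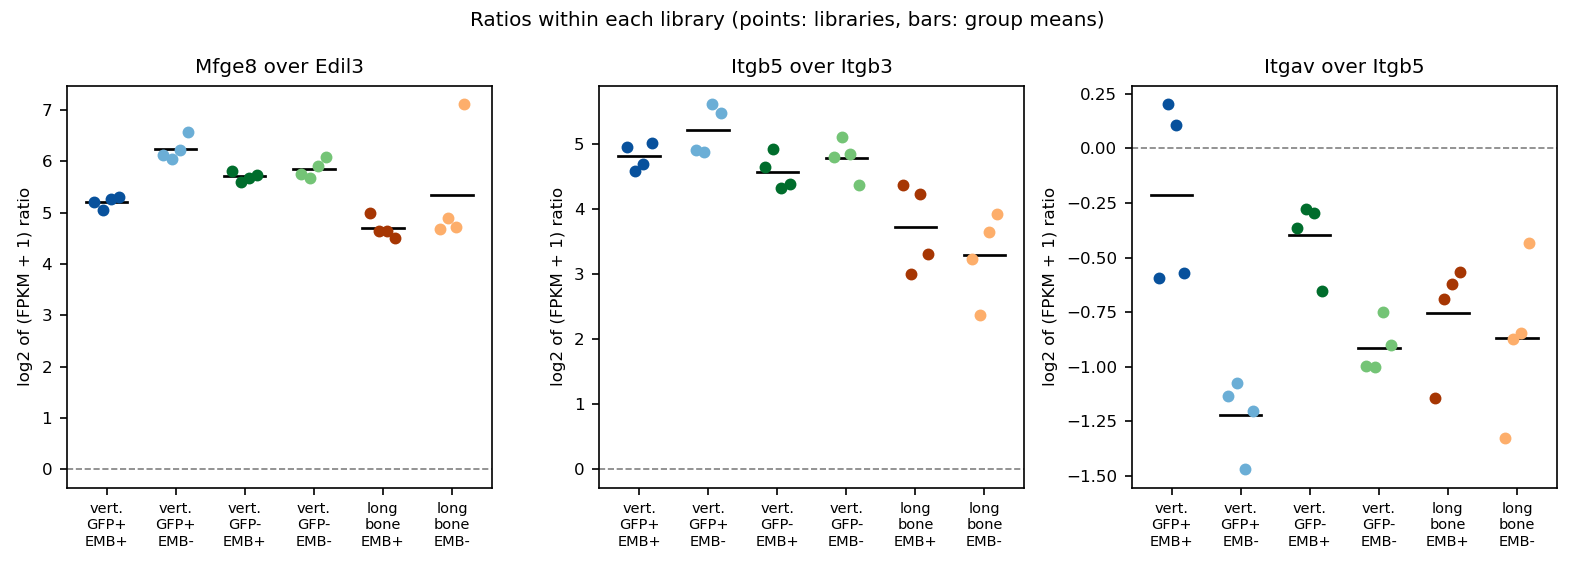
Log2 ratios of (FPKM + 1) within each library for Mfge8 over Edil3, Itgb5 over Itgb3 and Itgav over Itgb5 in the 6 groups; points are libraries and bars group means. In vertebral GFP+ cells Mfge8 over Edil3 averages 5.21 for EMB+ and 6.24 for EMB-, and Itgb5 over Itgb3 is lowest in the long bone groups.

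Ordered by mean level, Mfge8 ran from long bone EMB+ (1307 FPKM) and EMB- (1321) to vertebral cells, in the order GFP- EMB- (2394), GFP+ EMB- (2616), GFP+ EMB+ (2659) and GFP- EMB+ (2716). Its libraries were apart between the 2nd and 3rd of these groups and between the 3rd and 4th, and overlapped between the others. Edil3 had its lowest mean in vertebral GFP+ EMB- cells (33.7 FPKM), followed by long bone EMB- (34.2), vertebral GFP- EMB- (40.5), long bone EMB+ (50.4), vertebral GFP- EMB+ (51.2) and vertebral GFP+ EMB+ cells (71.4). For Edil3, neighbours in that order were apart at the last step alone. The order of Itgav was vertebral GFP- EMB- (29.4 FPKM) and GFP+ EMB- (30.4), long bone EMB- (39.5), vertebral GFP- EMB+ (45.8), then long bone EMB+ (45.9) and vertebral GFP+ EMB+ (49.3), and all its neighbours overlapped. Itgb3 and Itgb5 were each apart at a single step, between vertebral GFP- EMB+ and long bone EMB+ for Itgb3 and between vertebral GFP- EMB+ and vertebral GFP+ EMB- for Itgb5.

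Other partners of these subunits were examined from a list of 4 genes, of which 2 were tested. Itgb1, the β1 subunit that pairs with many α chains, averaged between 103.6 and 142.7 FPKM over the groups, above Itgb5 in each. It rose by 0.39 (adjusted p = 0.0278) in EMB+ against EMB- vertebral GFP+ cells, close to the median of all genes, and median-ratio scaling left a change of -7.1e-05. Leaving out vertebral GFP+ EMB+ replicate 1 or 2 or EMB- replicate 3 or 4 also ended that call (adjusted p between 0.0521 and 0.0994). Itga2b, the platelet αIIb chain that pairs with β3, averaged between 0.540 and 4.30 FPKM. Against long bone it was lower by 1.26 in vertebral GFP- EMB+ (adjusted p = 0.0267) and by 1.09 in vertebral GFP+ EMB- cells (adjusted p = 0.0278). It was not called in vertebral GFP+ EMB+ (-1.07, adjusted p = 0.0589) and GFP- EMB- cells (-0.78, adjusted p = 0.114). Itgb6 and Itgb8 did not pass the filter, with highest values of 0.0974 and 1.56 FPKM.

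Of 11 other α subunits 9 were tested. Between vertebral GFP+ EMB+ and EMB- cells 3 rose and 2 fell (50.0% of all genes were called), with a median change of 0.15 beside 0.32 over all genes. Itga8, another partner of β1 that binds Arg-Gly-Asp ligands, rose by 2.16 to 7.43 FPKM in EMB+ cells, against 0.875 FPKM in EMB- cells. Itga5, the chain of the main fibronectin receptor, fell by 1.85 to 18.04 FPKM in EMB+ cells, against 67.3 FPKM in EMB- cells. Itga6, a laminin receptor chain, rose by 1.13, and Itga1, a collagen receptor chain, rose by 0.94. Between vertebral GFP+ and long bone EMB+ cells 1 rose and 3 fell (21.5% of all genes), with Itga8 higher by 1.11, Itga9 lower by 1.195 and Itga11 lower by 0.97 on the log2 scale. Itga7 had a change of -0.64 there, which lost its call under most rescalings and with most single libraries of the contrast left out.

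Of 11 other ligands of the αv receptors 10 were tested, all but Vtn. Between vertebral GFP+ EMB+ and EMB- cells 4 rose and 3 fell (median 0.31), beside 50.0% of all genes called. Ctgf, a matricellular growth factor modulator, rose by 2.04 and Spp1, the bone matrix protein osteopontin, rose by 1.56. Postn, a periosteal matrix protein, fell by 2.77 and Nov, a relative of Ctgf, fell by 1.53, with overlapping groups and no call where the compared groups were fitted alone (adjusted p = 0.118). Between vertebral GFP+ and long bone EMB+ cells 3 rose and 5 fell (median -0.63, beside -0.01 over all genes, of which 21.5% were called). Fn1, fibronectin, rose by 1.69 to 1201 FPKM in vertebral GFP+ EMB+ cells, against 364.0 FPKM in long bone EMB+ cells. Postn fell by 2.20, Tnc, a tenascin, by 1.51, and Ibsp, bone sialoprotein, by 1.38. Spp1 was at 2458 FPKM in vertebral GFP+ EMB+ and 4961 FPKM in long bone EMB+ cells, so Mfge8 and this ligand were of the same order of abundance.

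Of 14 other phosphatidylserine bridges and receptors 10 were tested. Between vertebral GFP+ EMB+ and EMB- cells 5 rose and 2 fell (median 0.39), beside 50.0% of all genes called. Gas6, the bridge to the TAM receptor kinases, fell by 2.36, with 10.96 ± 0.86 FPKM in EMB+ and 60.5 ± 4.29 FPKM in EMB- cells. Of its receptors, Axl fell by 1.22, and Mertk rose by 0.71 but was not called after either rescaling. Anxa5, which binds phosphatidylserine, rose by 0.86. Between vertebral GFP+ and long bone EMB+ cells 2 rose and 1 fell (median -0.18), beside 21.5% of all genes called. Gas6 was lower by 2.04 on the log2 scale there, with 48.3 ± 7.02 FPKM in long bone EMB+ cells, while Lrp1, an engulfment receptor, was higher by 0.77. In the EMB- cells of these sites Gas6 had 60.5 ± 4.29 FPKM in vertebral GFP+ and 58.8 ± 5.20 FPKM in long bone cells, a change of 0.04 (adjusted p = 0.796) that both rescalings called, at 0.49 under quantile normalization and 0.35 under median-ratio scaling.

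**Figure D5:**
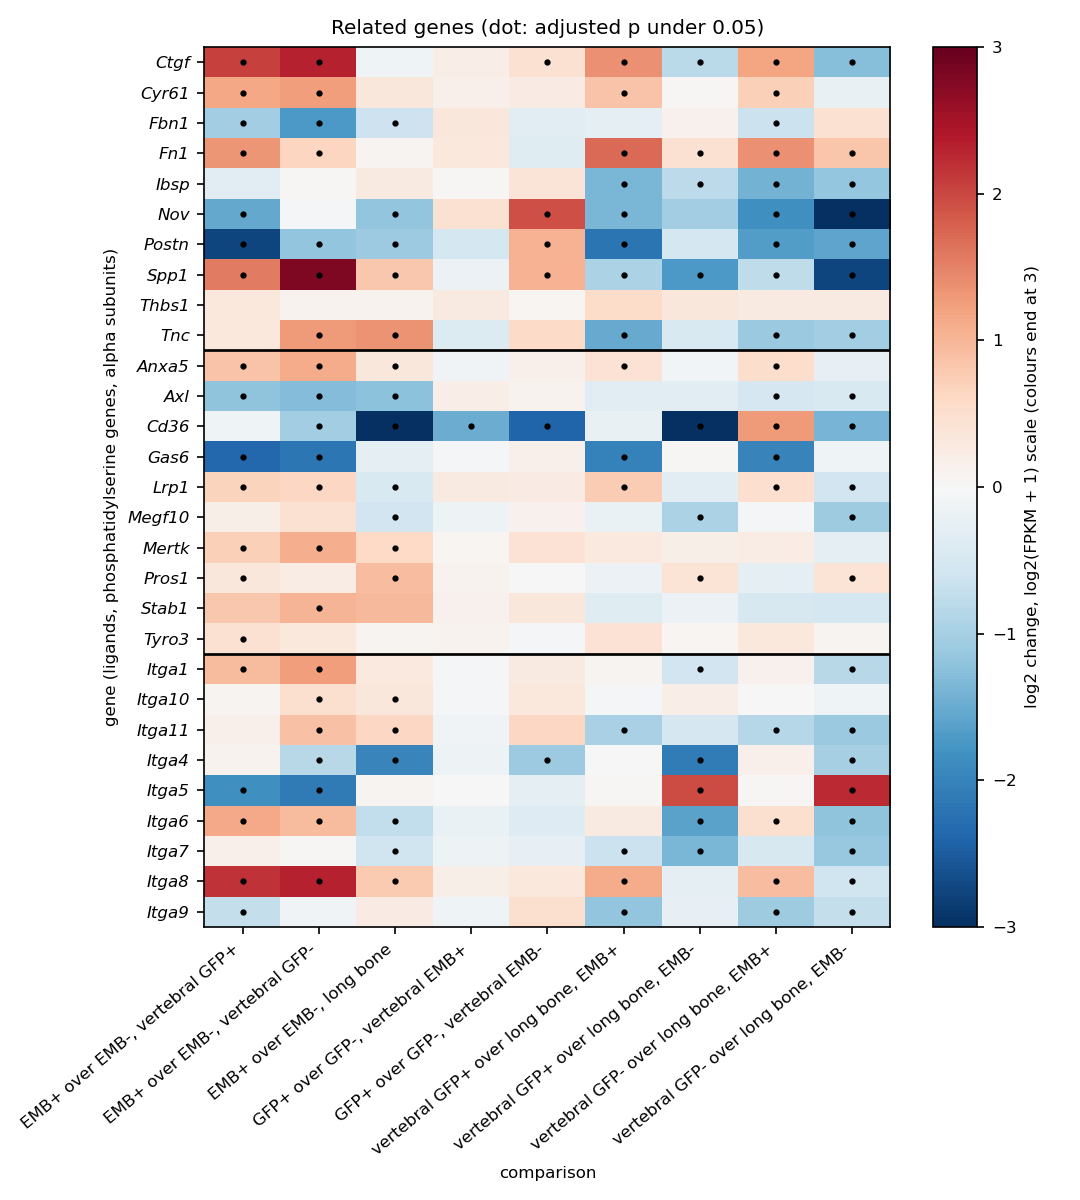
Log2 change (colour, ending at 3 in either direction) of other ligands, other phosphatidylserine genes and other α subunits, in rows, over 9 comparisons, in columns; a dot marks an adjusted p under 0.05. Gas6 is 2.36 lower in EMB+ vertebral GFP+ cells and 2.04 lower in vertebral GFP+ against long bone EMB+ cells.

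Of 18 genes of engulfment and integrin signalling 17 were tested, and 8 rose and 0 fell between vertebral GFP+ EMB+ and EMB- cells, with a median of 0.41 beside 0.32 over all genes, a count under the 50.0% of all genes called. Among them Tln2, a talin that activates integrins, rose by 1.48, Ptk2, focal adhesion kinase, by 0.77, Tln1 by 0.76 and Ilk, integrin-linked kinase, by 0.74. Between vertebral GFP+ and long bone EMB+ cells 1 rose, Tln2 by 1.66, and 4 fell (21.5% of all genes), with a median of -0.14. Elmo1, a Rac activator in engulfment, fell by 1.47, and Vcl, vinculin, fell by 0.62, a call lost without replicate 4 of either group (adjusted p = 0.0632 and 0.0584). Fermt3, a kindlin of blood cells, had a change of -1.30 on 0.331 FPKM in vertebral GFP+ and 2.96 FPKM in long bone EMB+ cells, which was not called without vertebral GFP+ EMB+ replicate 2 or 3 or long bone EMB+ replicate 2 or 4 (adjusted p between 0.0691 and 0.155).

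Both ligand genes have a link protein gene and then a proteoglycan gene as neighbours on one side. Hapln3, a link protein, and Acan, aggrecan, are the next protein-coding genes on one side of Mfge8, with gaps of 2.8 kb and 18.7 kb, and Hapln1 and Vcan, versican, are the next on one side of Edil3, with gaps of 216.6 kb and 332.1 kb. Acan did not follow Mfge8 between EMB states, since it rose by 1.21 in EMB+ against EMB- vertebral GFP+ cells, where Mfge8 changed by 0.02. Hapln1 rose by 1.36 in the same contrast as Edil3, while Vcan fell by 2.94, to 0.661 FPKM in EMB+ cells, against 11.8 FPKM in EMB- cells. Between vertebral GFP+ and long bone EMB+ cells Acan was higher by 0.57, Hapln1 was higher by 0.77 and Vcan was lower by 1.73 on the log2 scale. The Hapln1 call was lost without long bone EMB+ replicate 2 (adjusted p = 0.0551). In the EMB- cells, where Mfge8 was also higher, Vcan ran the other way and was higher by 1.03 (adjusted p = 7.99e-06), Hapln1 changed by 0.20 (adjusted p = 0.462), and Acan changed by 0.00 (adjusted p = 0.987), or by 0.31 with a call under median-ratio scaling (adjusted p = 0.0369). Hapln3 was higher by 0.44 in these EMB- cells (adjusted p = 0.0253). It was not called in the EMB+ cells (0.25), nor in vertebral GFP- against long bone cells (0.44 in EMB+ and -0.03 in EMB-). In EMB+ against EMB- cells Hapln3 changed by 0.38 in vertebral GFP+ (adjusted p = 0.0517), 1.04 in vertebral GFP- (adjusted p = 7.42e-06) and 0.57 in long bone cells (adjusted p = 0.00702).

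The profiles most like those of the members were sought among about 7036 tested genes with a mean of 5 FPKM or more, by the root mean square difference of log2 values centred on each gene's mean over the 24 libraries. For Mfge8 these were Trim47 (0.17), Lect1 (0.22), Cpne8 (0.22), Id2 (0.22) and Lims2 (0.22), beside a median of 0.66 over all genes. For Edil3 they were Etnk1 (0.18), Slc38a2 (0.19), Rapgef2 (0.19), Gfpt1 (0.21) and Skil (0.21), beside a median of 0.59. For Itgb3 they were Galnt10 (0.39), Myh9 (0.42), Ccdc3 (0.43), Cd44 (0.43) and Myl9 (0.45), beside a median of 0.88. The points share libraries and depth, and the values describe likeness over these libraries. Group means of Itgav and Itgb5 spanned 0.72 and 0.45 on the log2 scale, too little for such a search.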

How the data were processed

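RNA of sorted cells was amplified with SMART-Seq v4 and made into libraries with Nextera XT, per the labels' protocols, kits that do not mark strand. Per the submitters' processing notes, bcl2fastq 2.19, STAR 2.5.2 and Cufflinks 2.1.1 were used with build GRCm38. FPKM values were deposited by the authors in a table of protein-coding genes, without read counts, so depth is unknown, and abundant genes can lower every other value of a library. Of 22053 entries, 46 repeating an identifier, 56 repeating a symbol and 3 with a failed estimate were left out. File starts were read as counted from 0, with 1 added, since 17893 of 21741 genes matched to GENCODE M21 start 1 below it.

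Genes reaching FPKM 1 in 4 or more of 24 libraries were tested by limma 3.58.1 (R 4.3.3) on log2(FPKM + 1), in 1 fit of 6 groups with 18 residual degrees of freedom, empirical Bayes with trend and robust estimation, two-sided, and the Benjamini-Hochberg threshold of 0.05 was applied separately in 9 comparisons and 3 differences. The fit was tested on simulated data. Genes named are the 5 members, of each list up to 4 called genes with the largest change in a described comparison, markers set beside a result, and the 5 most alike genes of each member whose group means span 1 or more on the log2 scale. Spp1, Acan, Hapln1, Vcan and Tln2 are named in more than 1 comparison, and the level of Spp1 in the contrast of sites was chosen after its value was seen. Members and lists were chosen with earlier results of these data known. Same-numbered libraries of vertebral GFP+ and GFP- cells deviated together (correlations of deviations from 0.169 to 0.337 in EMB+ and from 0.130 to 0.292 in EMB- cells, and from 0.135 to 0.236 between vertebral GFP- EMB+ and EMB- cells), so their numbers were taken to pair them. The main fit used no block, and pairing entered only as an alternative. All long bone EMB+ titles carry number 1, so numbers there only name libraries. Alternatives were other pseudocounts, filters, scalings and weights, fits of the compared groups alone, replicate blocks, and leaving out libraries. Ly76 and Ahsp are not analysed here.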

Additional observations from a re-analysis of the deposited data

Results flagged for a closer look

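Of 30 sets of 4 libraries, a gene in a group each, 2 held a library far from the rest, where chance gives about 1 in 20. Mfge8 in vertebral GFP- EMB- cells was low in replicate 3, at 2213 FPKM beside 2430.2 to 2469.9 FPKM, a gap of 0.846 of the group's range. Edil3 in vertebral GFP- EMB+ cells was high in replicate 2, at 58.6 FPKM beside 48.0 to 49.7 FPKM, a gap of 0.835 of the range.

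The EMB change of Itgb5 in vertebral GFP+ cells was lower than that in long bone by 0.43 on the log2 scale (difference -0.4314, adjusted p = 0.0448 in limma), the only 1 of 15 such differences of the 5 genes to pass.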

How the results depend on the processing

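Of 2025 member changes refitted under alternatives, 1942 stayed on the same side of the threshold, with the same direction where they were called. Of the rest, 46 lost a call, 33 gained one and 4 turned round with a call before or after. Direction was not compared where neither fit made a call. The vertebral over long bone calls of Mfge8 and Itgb3 held in every alternative run. Median-ratio scaling turned Mfge8 in EMB+ against EMB- vertebral GFP+ cells to -0.37 (adjusted p = 0.0421), Itgb5 in vertebral GFP- cells to -0.30 (adjusted p = 0.0465) and Itgb1 in vertebral GFP+ cells to -7.1e-05. Quantile normalization turned Itgav and Itgb5 in vertebral GFP- against long bone EMB- cells to 0.0023 and 0.077. Library weights called Mfge8 in EMB+ against EMB- long bone cells at 0.29 (adjusted p = 0.0296, range 0.0296 to 0.985 over alternatives). The causes were not tested.

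Counts of members called moved as follows. Between EMB states, vertebral GFP- cells had 0 with quantile normalization and 2 with the compared groups alone. Long bone had 1 with quantile normalization, 2 with library weights, 1 with the replicate block within site and 0 to 1 without single libraries. Between GFP states, EMB+ cells had 1 with the compared groups alone, and EMB- cells had 1 with median-ratio scaling, the compared groups alone, weights or the replicate block, and 0 to 1 without single libraries. Vertebral GFP- against long bone EMB- cells had 2 with median-ratio scaling, with the compared groups alone or with a block by number across sites, and 2 to 4 without single libraries. For vertebral GFP+ minus GFP- the EMB difference had 1 with the compared groups alone and 2 with weights. For vertebral GFP+ minus long bone it had 0 with no filter, 0 with the compared groups alone, 2 with weights, 2 with the block, 0 without the libraries with conflicting labels and 0 to 2 without single libraries.

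Numbers were not taken to pair vertebral with long bone EMB- libraries or the long bone groups. Pairs of the same number did not all deviate together there (correlations from -0.30 to 0.39), and the block rests on a number alone. Between vertebral GFP+ EMB+ and EMB- libraries the correlations ran from 0.097 to 0.279. These were all positive, though the lowest was under that of any pair taken as paired. The pairs taken as paired link these groups by the same number through the vertebral GFP- groups, so these libraries are paired by number as well. The main fit left that pairing out of the EMB contrast in vertebral GFP+ cells. Of 8 libraries, 7 correlated best with their own number between vertebral GFP+ EMB+ and EMB- cells, 5 and 4 between vertebral GFP+ or GFP- and long bone EMB- cells, and 4 between the long bone groups, where title codes stood for numbers. In the comparisons of GFP states and in that of EMB states in vertebral GFP- cells the block changed no other call. Without counts, no limit from depth could be set.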
